A study of Mus musculus with 18 samples.

Results

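The genes described here encode the voltage-gated sodium channels, the voltage-gated calcium channels with their accessory subunits, and the HCN channels, measured in mouse brain cortex after ischemic injury. They were chosen by name (Scn with a number and a or b, Cacna, Cacnb, Cacng or Hcn with a number), which gave 44 of the 25918 gene names in the count table. All 44 are protein-coding genes of the GENCODE M21 annotation of mm10. The study sequenced poly(A) RNA of BALB/c mice in 18 libraries, 3 in each of 6 groups, from brain cortex or from the interparietal bone of the skull. The 9 cortex libraries are used here: 3 controls, 3 from day 2 and 3 from day 6 after ischemic injury in brain. The pieces taken held ischemic and surrounding tissue together. The labels give neither the method of ischemia nor the age of the mice, and they describe the controls only as controls for brain. They do not say that the libraries of a group came from separate animals, so the p-values measure the spread between these libraries, which may be technical.

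Voltage-gated sodium channels open on depolarization and carry the upstroke of the action potential; a large alpha subunit forms the pore, and small beta subunits adjust its gating and its place in the membrane. Calcium channels pair a pore-forming alpha1 subunit with alpha2delta and beta subunits, and couple electrical activity to transmitter release and to signalling in the cell body. Most gamma subunit genes active in brain encode TARPs, transmembrane partners that carry AMPA-type glutamate receptors to synapses. HCN channels open on hyperpolarization and set the resting excitability of cortical neurons.

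The cortex libraries held 13005050 to 27654269 counts, with all 3 controls deeper than all 6 injured libraries. Levels below are CPM, a gene's counts relative to the total of its library after TMM scaling. The 14 pan-neuronal markers summed to 9412, 11216 and 11911 CPM in the 3 controls. They summed to 8144, 6727 and 7887 at day 2 and 9564, 8763 and 8929 at day 6. Every library thus carried neuronal transcripts, which do not tell cortex from other brain regions. Monocyte and macrophage markers rose from sums of 25.1 to 32.7 CPM in controls to sums of 270.3 to 433 (day 2) and of 508 to 1881 (day 6), with 6 of 7 called higher at each day. In tissue libraries, fewer cells of a type and less RNA per cell cannot be told apart. Markers of striatal neurons, which lie outside the cortex, summed to 162 to 1490 CPM over the libraries, with controls 2 and 3 and day 2 library 3 highest.

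Among the genes named here, Scn2b (65.2), Cacng7 (63.3), Cacnb3 (63.2) and Cacng3 (41.9) had the highest mean CPM per kilobase of exon in control cortex (n = 3), so accessory subunits and TARPs filled the top of the order. Group values below are mean ± SD with n = 3. Of the named pore-forming subunits, Hcn2 (36.1), Scn2a (28.3) and Scn8a (26.2 CPM per kb) were highest. Cacna1a, Cacna1b and Cacna1e lay between 16.3 and 17.9 CPM per kb and did not differ beyond their spread. Control levels per kb of the sodium channel alpha subunits divided into 35.0% Scn2a, 32.0% Scn8a, 27.3% Scn1a and 4.92% Scn3a. Hcn2 made up 79.5% of the HCN levels per kb. The muscle channel Scn4a, the sensory neuron channels Scn10a and Scn11a, and the muscle subunit Cacng1 had 0 to 5 counts in each library and did not pass the filter on low counts, which left 40 genes tested.

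Of the 40 channel genes tested, 14 were called lower at day 2 than in controls (35%) and 1 higher, Cacng5, in edgeR's quasi-likelihood test with Benjamini-Hochberg adjustment over the 18151 genes tested and a threshold of 0.05. Of all genes tested, 9.99% were called lower and 14.7% higher, 24.7% together. The median log2 change was -0.39 over the 40 genes and 0.00 over all genes, and 33 of the 40 changes were negative against 9066 of all 18151. Control and day 2 libraries did not overlap for 17 of the 40 tested, against 39% of all genes tested. Without control library 3 the genes called numbered 8 (7 lower), and the genes called lower numbered 9 without control library 2 and 9 without day 2 library 2. Over all genes these fits called 3136, 3221 and 3609 in the same order.

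At day 6, 1 of the 40 genes was called against control, Scn3a, which was lower; of all genes 2.39% were called lower and 7.93% higher, 10.3% together. At an unadjusted p below 0.05 there were 8 of the 40, against 4372 of all 18151. The median log2 change was -0.21 over the 40 and -0.02 over all genes, and 33 of the 40 changes were negative, as many as at day 2, against 9500 of all 18151. Control and day 6 libraries did not overlap for 10 of the 40, against 30.9% of all genes tested. Leaving out single libraries gave 0 to 2 called genes. It gave 0 without control library 3 or any 1 of the 3 day 6 libraries, and 2 without control library 1. In the fits with 0, edgeR gave 5 to 10 genes at an unadjusted p below 0.05, and 3351 to 4552 of all genes. DESeq2 called 4 and a fit of the compared groups alone called 6, all lower. The same fits called 2411 of 18151 and 2352 of 17735 genes.

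Between day 2 and day 6, 8 genes were called higher at day 6 and 3 lower, where 5.3% and 6.26% of all genes were, 11.6% together. The median log2 change was 0.15 over the 40 genes and -0.02 over all genes. The day 2 libraries enter this comparison and the first, and the controls enter the first and the second, so the values are not independent. Day 2 and day 6 libraries did not overlap for 14 of the 40, against 30.5% of all genes tested. The 11 calls fell to 3 without day 6 library 3, 5 without day 6 library 1, 6 without day 2 library 1, 7 without day 2 library 3 and 7 without day 6 library 2. Over all genes these fits called 910, 1273, 1752, 1245 and 1845 in the same order, against 2099 in the main fit.

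**Figure D1:**
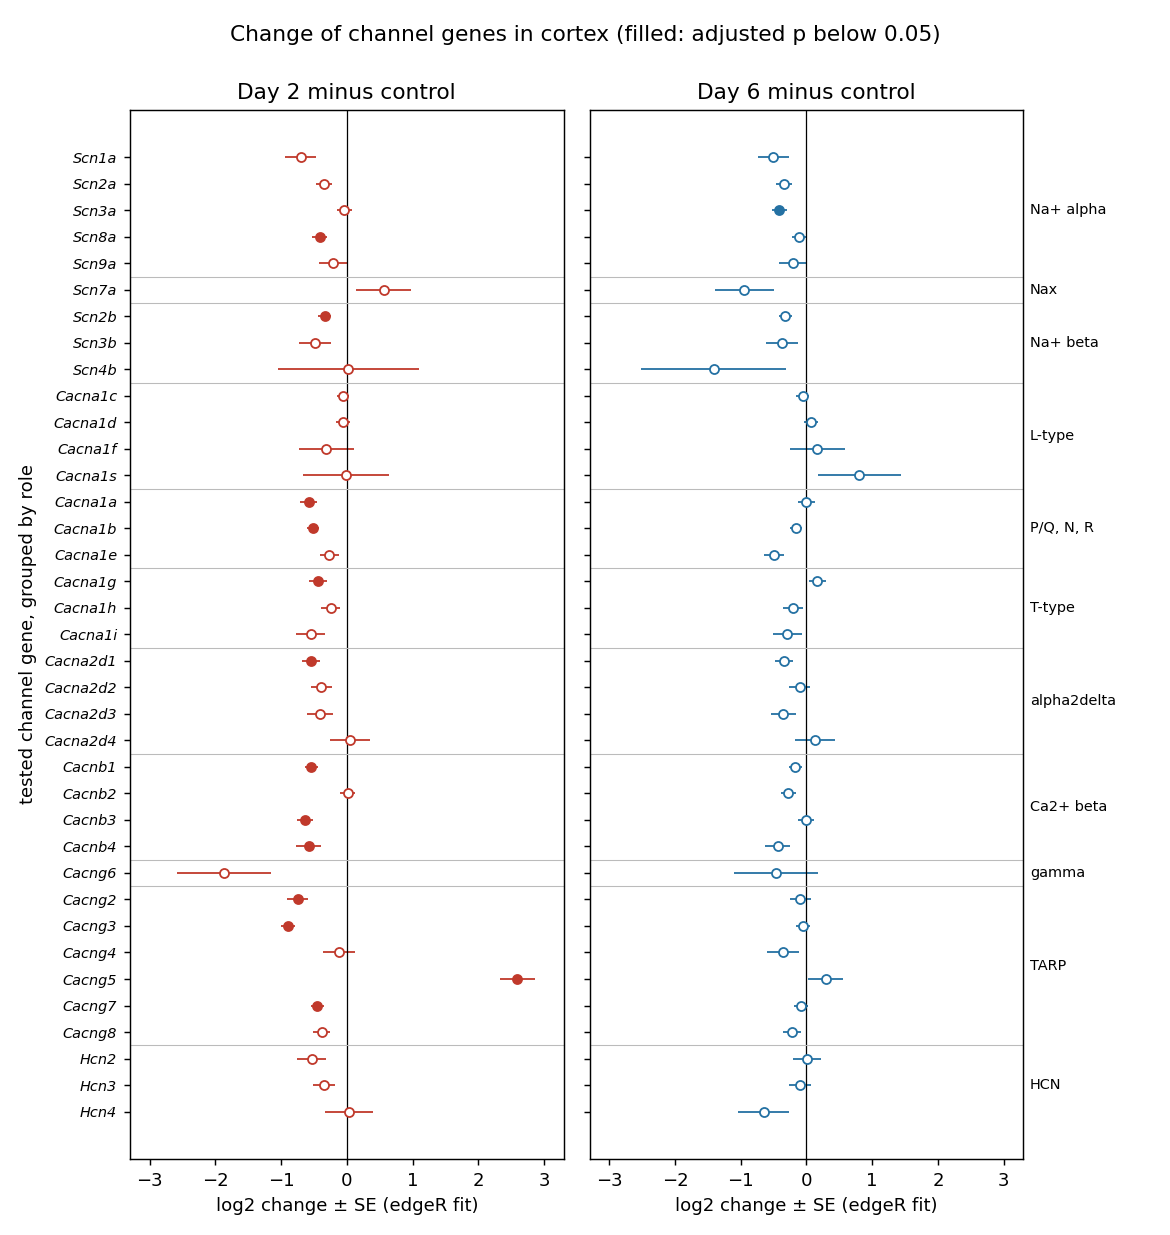
Log2 change with its standard error (x axis) of 37 of the 40 tested channel genes (rows, grouped by role), for day 2 minus control on the left and day 6 minus control on the right; filled points have an adjusted p below 0.05. Most day 2 points lie left of 0 while Cacng5 lies at 2.59, and at day 6 Scn3a is the one filled point.

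Among sodium channel alpha subunits, Scn8a (chr15:100869858-101045938, mm10), the channel of axon initial segments and nodes of Ranvier, was called lower at day 2. It had 350.2, 416 and 471 CPM in controls, 306, 283 and 342 at day 2 and 374, 363 and 410.2 at day 6, in the order of the library numbers here and below. Every day 2 library lay below every control, with a log2 change ± SE of -0.41 ± 0.11 (adjusted p = 0.0178). The change at day 6 was -0.11 ± 0.11 (adjusted p = 0.627), with a 95% interval of -0.35 to 0.14. Adjusted p-values of other fits are given in parentheses after the library left out or the setting changed; the covariate, a sum of striatal markers, is described with Scn4b. The day 2 call was lost without control library 2 (0.0591), control library 3 (0.0962) or day 2 library 2 (0.0633).

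Scn1a, on which parvalbumin interneurons depend most, had 177, 254 and 325 CPM in controls, 157, 113 and 194 at day 2 and 172, 187 and 174 at day 6. Its lowest control lay inside the day 2 range, and the day 2 change of -0.70 ± 0.23 (adjusted p = 0.0572) missed the threshold. It was called without control library 1 (0.00617) or day 2 library 3 (0.0204) and also with DESeq2 (0.00332), voom (0.0288) or the striatal covariate (0.00262). Its day 6 change of -0.50 ± 0.23 (adjusted p = 0.231) was called without control library 1 (0.0481). Scn2a, the main channel of excitatory axons early in life and of their proximal initial segment in the adult, had 369.6, 334 and 378 CPM in controls, 337, 237 and 279 at day 2 and 307, 267 and 279.7 at day 6. Its day 2 and control libraries overlapped by day 2 library 1 alone, and the change of -0.34 ± 0.12 (adjusted p = 0.0503) lay next to the threshold. It was called without day 2 library 1 (0.00437) and also with RLE factors (0.0468), upper quartile factors (0.0443), no filter (0.0417), DESeq2 (0.0296) or voom (0.0451). All day 6 libraries lay below the controls, with a change of -0.34 ± 0.12 (adjusted p = 0.09). That change was called with the replicate number as a block (0.0393) or the compared groups alone (0.021).

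Scn3a (chr2:65457118-65567627), prominent before birth and low in adult brain, had another time course, with 53.2, 45.2 and 49.6 CPM in controls, 55.1, 42.3 and 47.0 at day 2 and 35.2, 38.6 and 37.4 at day 6. Day 2 libraries lay on both sides of the controls (-0.04 ± 0.11, adjusted p = 0.862), while every day 6 library lay below every control and every day 2 library. The day 6 change was -0.41 ± 0.11 (adjusted p = 0.0324) against control and -0.38 ± 0.11 (adjusted p = 0.047) against day 2. The first call was lost without control library 1 (0.13), control library 3 (0.0935), day 6 library 1 (0.0879), day 6 library 2 (0.0752) or day 6 library 3 (0.101) and also with the striatal covariate (0.0819). The second was lost without day 2 library 1 (0.154), day 2 library 3 (0.0983), day 6 library 1 (0.146), day 6 library 2 (0.0716) or day 6 library 3 (0.133), and with 7 of the 9 other alternatives. Scn9a, known from pain-sensing neurons, ranged over 4.36 to 6.04 CPM and was called in no comparison.

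Scn7a encodes Nax, a sodium sensor rather than a voltage-gated channel. It was scarce, at 2.05, 2.64 and 2.08 CPM in controls, 4.82, 3.74 and 1.46 at day 2 and 1.54, 0.641 and 1.37 at day 6. Day 2 library 3 overlapped the day 6 libraries, and the gene was called lower at day 6 than at day 2, with a change of -1.51 ± 0.45 (adjusted p = 0.0435). The call was lost without day 2 library 1 (0.16), day 2 library 2 (0.096), day 6 library 1 (0.0596), day 6 library 2 (0.132) or day 6 library 3 (0.106) and also with voom (0.103) or the compared groups alone (0.0707). Against control its changes of 0.56 ± 0.42 (adjusted p = 0.376) at day 2 and -0.95 ± 0.45 (adjusted p = 0.215) at day 6 were not called.

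Among sodium channel beta subunits, Scn2b, which is linked to the pore by a disulfide bond, was called lower at day 2. It had 278, 302 and 330.2 CPM in controls, 235, 219 and 265 at day 2 and 261, 235 and 234 at day 6, without overlap between control and day 2, and a change of -0.34 ± 0.10 (adjusted p = 0.0244). At day 6 the change was -0.32 ± 0.10 (adjusted p = 0.0603), called with DESeq2 (0.0391) or the compared groups alone (0.03). The day 2 call was lost without control library 2 (0.0708), control library 3 (0.113) or day 2 library 2 (0.0862) and also with the compared groups alone (0.052). Scn3b, which associates with the pore without a covalent bond, had 169.7, 120.0 and 98.7 CPM in controls, 124, 76.5 and 76.1 at day 2 and 116, 87.4 and 97.5 at day 6, and its change of -0.49 ± 0.25 (adjusted p = 0.194) was called without day 2 library 1 (0.0322).

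Scn4b, whose product supports resurgent sodium current and is abundant in striatal neurons, varied more, relative to its mean, within the controls and within day 2 than any other gene of the set with a control mean of at least 50 CPM. It had 23.1, 157 and 206 CPM in controls, 31.1, 48.2 and 313 at day 2 and 41.5, 54.7 and 49.04 at day 6. Its change was 0.02 ± 1.07 (adjusted p = 0.992) at day 2, with a 95% interval of -2.57 to 2.62, and -1.41 ± 1.105 (adjusted p = 0.512) at day 6. The 7 striatal neuron markers in the table summed to 247, 612 and 811 CPM in controls, 252, 173 and 1490 at day 2 and 196, 162 and 172 at day 6. The 3 libraries with the highest sums also had the 3 highest Scn4b levels, in the same order, and in the 6 others Scn4b stayed between 23.1 and 54.7 CPM. Adora2a, an adenosine receptor of striatal projection neurons, had 1.59, 23.7 and 30.4 CPM in controls, 4.99, 1.33 and 64.8 at day 2 and 1.75, 2.38 and 2.26 at day 6. Scn2b, which lies beside Scn4b within 36.37 kb on chromosome 9, ranged over 219 to 330.2 CPM only. A covariate of the log2 striatal sum was an alternative chosen after seeing the data. With it, 21 of the 40 genes were called at day 2, 0 at day 6 (6 at an unadjusted p below 0.05) and 17 between the days. Of all 18151 genes it called 4612, 1106 and 1984 in the same order, with 3372 at an unadjusted p below 0.05 at day 6. The 6 genes added at day 2 were Scn1a, Cacna1i, Cacna2d2, Cacna2d3, Cacng6 and Cacng8. The change of Scn4b was then 0.69 at day 6 (adjusted p = 0.66) and 0.61 from day 2 to day 6 (adjusted p = 0.592), against -1.41 ± 1.105, adjusted p = 0.512, and -1.43 ± 1.11, adjusted p = 0.477, without the covariate.

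**Figure D2:**
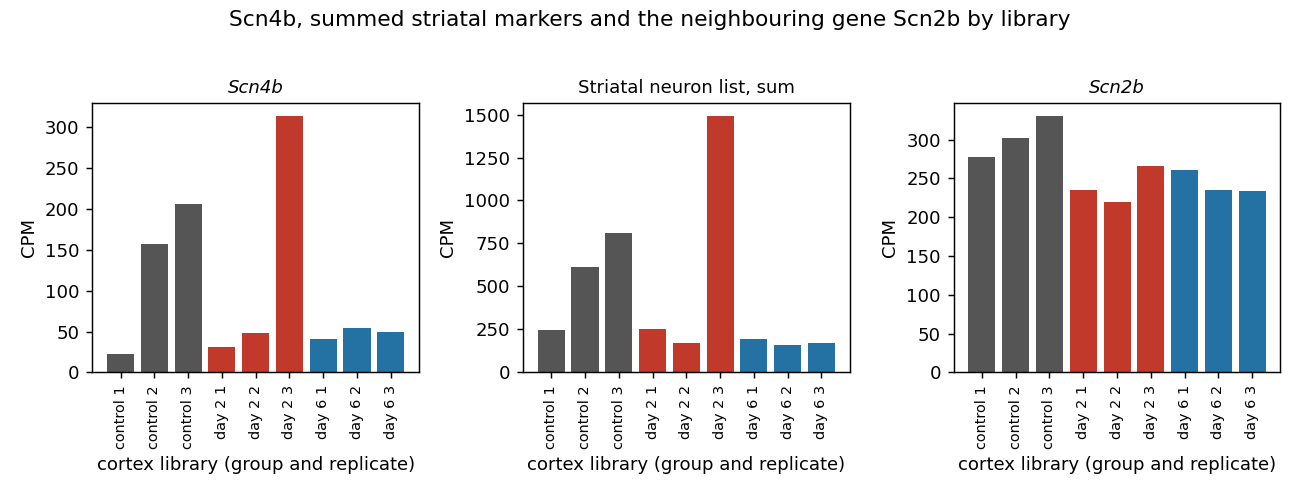
CPM (y axes from 0) of Scn4b, of the summed striatal neuron markers and of Scn2b in each of the 9 cortex libraries (x axes, bars colored by group). Controls 2 and 3 and day 2 library 3 stand out for Scn4b (157, 206 and 313 CPM) and for the striatal sum, and not for Scn2b.

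Of the calcium channels that trigger transmitter release, both main presynaptic pores were called lower at day 2. Cacna1a (chr8:84388440-84640246), the P/Q-type channel, had 173, 205 and 237 CPM in controls, 114, 142 and 154 at day 2 and 202, 203 and 208 at day 6. Cacna1b (chr2:24603887-24763152), the N-type channel, had 156, 151 and 185 CPM in controls, 115, 116 and 113 at day 2 and 142, 146 and 153 at day 6. For both, every day 2 library lay below every control, with changes of -0.58 ± 0.13 (adjusted p = 0.00392) and -0.52 ± 0.09 (adjusted p = 0.00111), and both were called in each of the 15 refits. At day 6 the change of Cacna1a was -0.00 ± 0.13 (adjusted p = 0.994), with a 95% interval of -0.27 to 0.27, and that of Cacna1b -0.16 ± 0.09 (adjusted p = 0.328). From day 2 to day 6 Cacna1a was higher by 0.58 ± 0.13 (adjusted p = 0.0101), a call lost without day 6 library 3 (0.0507). Cacna1b was higher by 0.36 ± 0.09 (adjusted p = 0.0242), a call lost without day 2 library 3 (0.0813), day 6 library 1 (0.0516), day 6 library 2 (0.0513) or day 6 library 3 (0.113). Cacna1e, the R-type channel, had 476, 378 and 379 CPM in controls, 427, 269 and 331 at day 2 and 308, 273 and 295 at day 6. Its day 2 libraries overlapped the controls (-0.27 ± 0.15, adjusted p = 0.23); its day 6 libraries all lay below them, and the change of -0.49 ± 0.15 (adjusted p = 0.0555) missed the threshold. It was called with DESeq2 (0.0203), the replicate number as a block (0.00887) or the compared groups alone (0.00801).

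The L-type channels couple depolarization to signalling in the cell body and were called in no comparison. Cacna1c, the main L-type channel of brain and heart, had 113, 95.8 and 115 CPM in controls, 98.3, 109.6 and 103 at day 2 and 97.5, 103 and 111 at day 6. Cacna1d, which opens at lower voltage, had 76.2, 67.6 and 63.5 CPM in controls, 68.9, 67.8 and 62.4 at day 2 and 64.3, 74.1 and 79.6 at day 6. The groups overlapped for both genes in all 3 comparisons. The day 2 changes were -0.06 ± 0.10 (adjusted p = 0.733) with a 95% interval of -0.26 to 0.15, and -0.06 ± 0.10 (adjusted p = 0.745) with one of -0.28 to 0.16; neither interval reaches the -0.58 estimated for Cacna1a. The difference between L-type and presynaptic channels was not tested. Cacna1f, known from retina, and Cacna1s, of skeletal muscle, stayed between 0.166 and 2.21 CPM, and opposite-strand genes cover 20% of the exon bases of Cacna1s.

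T-type channels open near the resting potential and support burst firing. Cacna1g had 136, 131 and 154 CPM in controls, 90.3, 129.6 and 90.5 at day 2 and 148, 152 and 174 at day 6. Day 2 libraries 1 and 3 lay far below the controls and library 2 just below them, with a change of -0.44 ± 0.13 (adjusted p = 0.029); the call was lost without control library 3 (0.114), day 2 library 1 (0.094) or day 2 library 3 (0.112) and also with the compared groups alone (0.0554). From day 2 to day 6 it was higher by 0.61 ± 0.14 (adjusted p = 0.0118), a call lost without day 2 library 3 (0.0502) or day 6 library 3 (0.0668). Cacna1i had 70.7, 98.4 and 128 CPM in controls, 54.7, 61.1 and 87.3 at day 2 and 78.8, 82.2 and 82.3 at day 6; its day 2 change of -0.55 ± 0.22 (adjusted p = 0.102) was called without control library 1 (0.0103) or day 2 library 3 (0.0172) and also with DESeq2 (0.0246) or the striatal covariate (0.0106). Cacna1h ranged over 33.2 to 56.0 CPM and was called in no comparison.

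The alpha2delta subunits raise the number of channels at the membrane, and Cacna2d1 and Cacna2d2 encode the targets of gabapentin. Cacna2d1 had 299.8, 296 and 378 CPM in controls, 263, 176 and 229 at day 2 and 269.6, 256 and 245 at day 6, without overlap between control and day 2. Its change was -0.54 ± 0.14 (adjusted p = 0.0108), and the call was lost without control library 3 (0.0546). All day 6 libraries also lay below the controls. The day 6 change of -0.34 ± 0.14 (adjusted p = 0.149) was called with the compared groups alone (0.0424). Cacna2d3 had 108, 127 and 144 CPM in controls, 91.5, 67.9 and 126 at day 2 and 109, 88.4 and 101 at day 6, with a change of -0.41 ± 0.20 (adjusted p = 0.161) that was called without day 2 library 3 (0.00774) and also with the striatal covariate (0.015). Cacna2d2 had 37.0 ± 4.81 CPM in controls and 28.3 ± 7.03 at day 2, a change of -0.39 ± 0.16 (adjusted p = 0.0932), called without day 2 library 3 (0.0105) and also with the striatal covariate (0.037). Cacna2d4, known from photoreceptors, ranged over 3.06 to 6.14 CPM and was not called.

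Of the 4 calcium channel beta subunits, which bring alpha1 to the membrane and shift its gating, 3 were called lower at day 2. Cacnb3 (chr15:98630840-98644529) had 228, 257 and 276 CPM in controls, 147, 193 and 151 at day 2 and 278, 229 and 248 at day 6. Its day 2 libraries lay below all others; the change was -0.63 ± 0.12 (adjusted p = 0.00164) at day 2, -0.01 ± 0.12 (adjusted p = 0.969) at day 6 with a 95% interval of -0.27 to 0.25, and 0.62 ± 0.12 (adjusted p = 0.00525) from day 2 to day 6. Cacnb1 had 137, 138 and 157 CPM in controls, 90.9, 99.7 and 107 at day 2 and 138, 118 and 129 at day 6, with a day 2 change of -0.54 ± 0.10 (adjusted p = 0.00118) and one of 0.37 ± 0.10 (adjusted p = 0.0262) from day 2 to day 6. The second call was lost without day 2 library 1 (0.0709), day 6 library 1 (0.105) or day 6 library 3 (0.0955). Cacnb4, the gene mutated in the lethargic mouse, had 217, 274 and 324 CPM in controls, 204, 129 and 211 at day 2 and 217, 202 and 182 at day 6. Its change of -0.58 ± 0.19 (adjusted p = 0.047) lay next to the threshold and was lost without control library 2 (0.113), control library 3 (0.161), day 2 library 1 (0.0691) or day 2 library 2 (0.0851) and also with no filter (0.102) or the compared groups alone (0.0781); an opposite-strand gene covers 16% of its exon bases. Cacnb2 had 44.6, 54.3 and 51.9 CPM in controls, 50.1, 45.7 and 56.2 at day 2 and 42.7, 42.2 and 39.6 at day 6. Its day 2 change was 0.01 ± 0.11 (adjusted p = 0.957), with a 95% interval of -0.22 to 0.24. Every day 6 library lay below every control and every day 2 library. The day 6 changes of -0.27 ± 0.11 (adjusted p = 0.133) against control and -0.29 ± 0.11 (adjusted p = 0.109) against day 2 were not called.

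The TARP genes held the one gene that rose at day 2, Cacng5, beside 3 that fell. One of the 2 promoters given for Cacng5, that at the annotated start of the gene, is printed beside those of Cacng7, the TARP of the same subtype that fell, and of Cacna1b and Cacna2d1, a pore and an accessory subunit that fell, so that the bases upstream of genes with opposite changes can be compared. Each is the 250 bases before a RefSeq start (GRCm38.p6), in the direction of the gene. Capitals mark the GC box (GGGCGG on either strand) and the AP-1 motif (TGANTCA, which reads the same on both strands). The Cacng5 stretch is chr11:107915056-107915305 (minus strand), that of Cacng7 chr7:3332575-3332824 (plus), that of Cacna1b chr2:24763153-24763402 (minus) and that of Cacna2d1 chr5:15934441-15934690 (plus).
Cacng5: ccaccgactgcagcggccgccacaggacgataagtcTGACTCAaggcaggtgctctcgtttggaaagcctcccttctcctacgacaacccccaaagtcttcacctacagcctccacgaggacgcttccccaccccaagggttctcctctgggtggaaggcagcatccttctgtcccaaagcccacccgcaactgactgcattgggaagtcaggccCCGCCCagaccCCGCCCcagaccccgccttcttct
Cacng7: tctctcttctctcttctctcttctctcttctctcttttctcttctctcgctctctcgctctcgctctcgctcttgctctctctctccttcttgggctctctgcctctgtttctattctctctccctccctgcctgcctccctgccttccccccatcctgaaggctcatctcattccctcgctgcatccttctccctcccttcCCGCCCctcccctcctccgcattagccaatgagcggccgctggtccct
Cacna1b: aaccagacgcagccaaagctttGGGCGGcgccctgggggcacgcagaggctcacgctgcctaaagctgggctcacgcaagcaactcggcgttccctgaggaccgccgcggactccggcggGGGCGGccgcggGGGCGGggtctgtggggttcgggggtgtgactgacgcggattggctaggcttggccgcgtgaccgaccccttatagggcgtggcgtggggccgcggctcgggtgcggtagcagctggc
Cacna2d1: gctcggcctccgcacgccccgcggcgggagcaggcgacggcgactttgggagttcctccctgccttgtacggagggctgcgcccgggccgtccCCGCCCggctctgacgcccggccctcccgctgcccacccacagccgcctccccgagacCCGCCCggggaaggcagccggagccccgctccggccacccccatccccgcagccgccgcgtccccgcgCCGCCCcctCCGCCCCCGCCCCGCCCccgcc
The Cacng5 stretch holds 2 GC boxes and 1 AP-1 motif, that of Cacng7 1 GC box, that of Cacna1b 3 and that of Cacna2d1 6, some of them overlapping. The other Cacng5 entry (chr11:107911363-107911612, minus strand) holds neither motif and has 2 CG pairs. CG pairs in the printed stretches numbered 12, 9, 29 and 36 in the same order.

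RefSeq promoters were given for 32 of the 44 genes, in 43 entries. The GC box was in 39.5% of them and in 32.7% of all 32851 entries. AP-1 letters were in 2.33%, a single Cacng5 entry, against 6.75% of all. TATAAA was in 4.65% against 12.4%, CCAAT in 23.3% against 33.8% and the CRE letters TGACGTCA in 0 against 1.55%. The median GC content was 56.8% against 52.4%. Motifs and printed promoters were chosen after the expression values were seen.

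Cacng5 (chr11:107874605-107915055), a type II TARP, had 7.96, 7.25 and 4.12 CPM in controls, 27.98, 50.5 and 38.4 at day 2 and 6.75, 7.78 and 9.29 at day 6. Every day 2 library lay above every other library. The day 2 mean of 39.0 ± 11.3 CPM was 6.04-fold that of controls, 6.44 ± 2.04, by the fitted change of 2.59 ± 0.27 (adjusted p = 4.04e-05). At day 6 it was 7.94 ± 1.28 CPM, 0.29 ± 0.27 (adjusted p = 0.567) against control and -2.30 ± 0.27 (adjusted p = 0.000374) against day 2. Its day 2 call and its call from day 2 to day 6 were kept in all 15 refits of each. Cacng5 made up 1.13% ± 0.394 of the TARP levels per kb in controls, 9.11% ± 1.72 at day 2 and 1.48% ± 0.283 at day 6. Cacng4, its neighbour within 211.8 kb of chromosome 11, had 25.6, 33.5 and 27.4 CPM in controls, 17.5, 23.8 and 38.2 at day 2 and 25.9, 18.7 and 23.0 at day 6, and was not called (-0.12 ± 0.25, adjusted p = 0.776 at day 2).

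Other cell types moved beside Cacng5. Sums of the neutrophil markers were 0.9 to 2.6 CPM (controls), 41.5 to 54.2 (day 2) and 4.9 to 6.0 (day 6), with 4 of 5 tested called higher at day 2 and 3 at day 6. Astrocyte markers summed to 5386 to 6239, 7116 to 7701 and 6793 to 7375 CPM, with 3 of 8 called higher and 2 lower at day 2. Single genes weigh heavily in these sums. Mean Gfap went from 203.58 CPM in controls to 2981.9 at day 2, and mean Slc1a2 from 3837.7 to 2406.7. Oligodendrocyte precursor markers summed to 169.5 to 229, 201 to 237 and 217 to 279 CPM, with 1 of 6 higher (Olig2) and 1 lower (Gpr17) at day 2. Endothelial markers summed to 176 to 201, 268 to 426 and 258 to 327 CPM, with 6 of 7 higher at day 2 and 5 at day 6. Microglia markers summed to 257 to 298, 440.0 to 518 and 574 to 924 CPM, with 4 of 7 higher and 1 lower at day 2 and 7 higher at day 6. Of the other lists, 2 of 6 fibroblast and 2 of 8 mural cell markers were higher at day 2 and none lower. The part of these cell types in the Cacng5 level was not tested.

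Cacng3 (chr7:122670492-122769393), a type I TARP of forebrain synapses, fell most among the genes called lower. It had 105, 122 and 122 CPM in controls, 61.5, 67.6 and 58.7 at day 2 and 124, 100.4 and 113 at day 6. Its day 2 libraries lay far below all 6 others, with a change of -0.89 ± 0.10 (adjusted p = 4.86e-05) at day 2, -0.05 ± 0.10 (adjusted p = 0.821) at day 6 with a 95% interval of -0.27 to 0.17, and 0.84 ± 0.10 (adjusted p = 0.000307) from day 2 to day 6. Cacng2, or stargazin, whose loss gives mice absence seizures and ataxia, had 82.4, 114 and 125 CPM in controls, 57.7, 62.1 and 71.5 at day 2 and 117, 87.2 and 97.2 at day 6. It changed by -0.75 ± 0.16 (adjusted p = 0.00384) at day 2 and by 0.66 ± 0.16 (adjusted p = 0.0184) from day 2 to day 6, the latter lost without day 2 library 1 (0.072), day 2 library 2 (0.0605), day 6 library 1 (0.0676) or day 6 library 3 (0.0581). Cacng7, like Cacng5 a type II TARP, had 154, 152 and 158 CPM in controls, 95.1, 125 and 119 at day 2 and 148, 141 and 148 at day 6. It changed by -0.45 ± 0.10 (adjusted p = 0.00525) at day 2 and by 0.36 ± 0.10 (adjusted p = 0.0338) afterwards, the latter lost without day 2 library 1 (0.0791), day 2 library 3 (0.0594), day 6 library 1 (0.0943), day 6 library 2 (0.0562) or day 6 library 3 (0.122). Cacng8, which is richest in hippocampus, had 27.4 to 30.9 CPM at day 2 and 33.9 to 39.8 in controls; these did not overlap, and the change of -0.38 ± 0.13 (adjusted p = 0.0521) missed the threshold. It was called with RLE factors (0.0442), upper quartile factors (0.0471), DESeq2 (0.0344), the compared groups alone (0.0351) or the striatal covariate (0.0454). Cacng6, a relative of the muscle subunit, had 1 to 27 counts in each library and a change of -1.86 ± 0.71 (adjusted p = 0.0731) that was called without day 2 library 1 (0.0251) and also with the striatal covariate (0.0408). Skeletal muscle markers summed to 19.9 to 37.9 CPM over the 9 libraries, with 3 of 8 called lower at day 2.

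**Figure D3:**
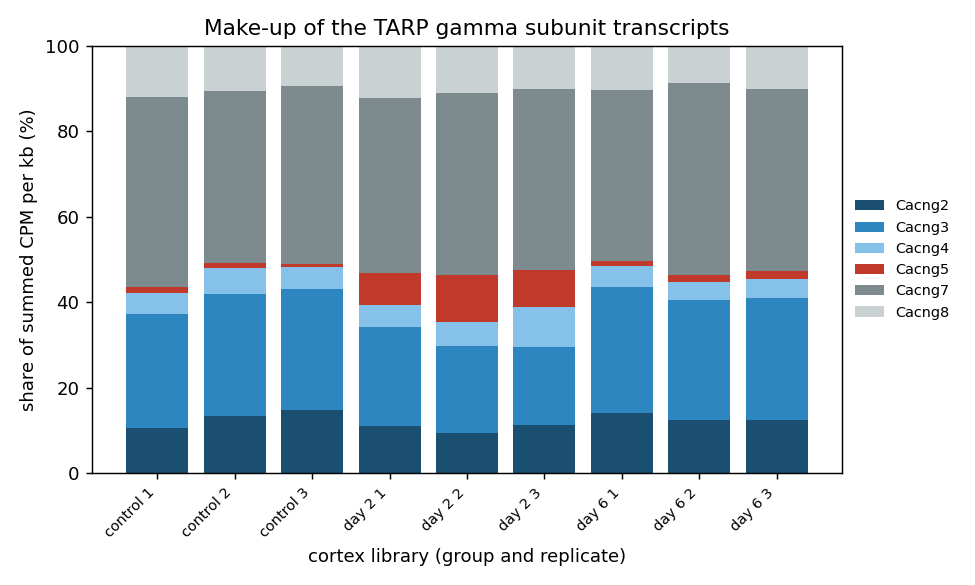
Share of each of the 6 TARP genes in their summed CPM per kb (y axis, percent, stacked bars) in each cortex library (x axis). Cacng5 takes 7.64% to 11.0% in the 3 day 2 libraries and 0.695% to 1.70% in the 6 others.

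Among HCN channels, Hcn2 had 90.02, 132 and 124 CPM in controls, 53.0, 87.7 and 98.9 at day 2 and 115, 106 and 127 at day 6. Its changes were -0.53 ± 0.22 (adjusted p = 0.112) at day 2, called without control library 1 (0.0445) or day 2 library 3 (0.0444) and also with DESeq2 (0.0277), and 0.01 ± 0.22 (adjusted p = 0.988) at day 6. Hcn3 (9.06 to 15.8 CPM) and Hcn4 (1.49 to 4.51 CPM) were called in no comparison; exons of Pklr on the other strand cover 17.1% of the Hcn3 bases.

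**Figure D4:**
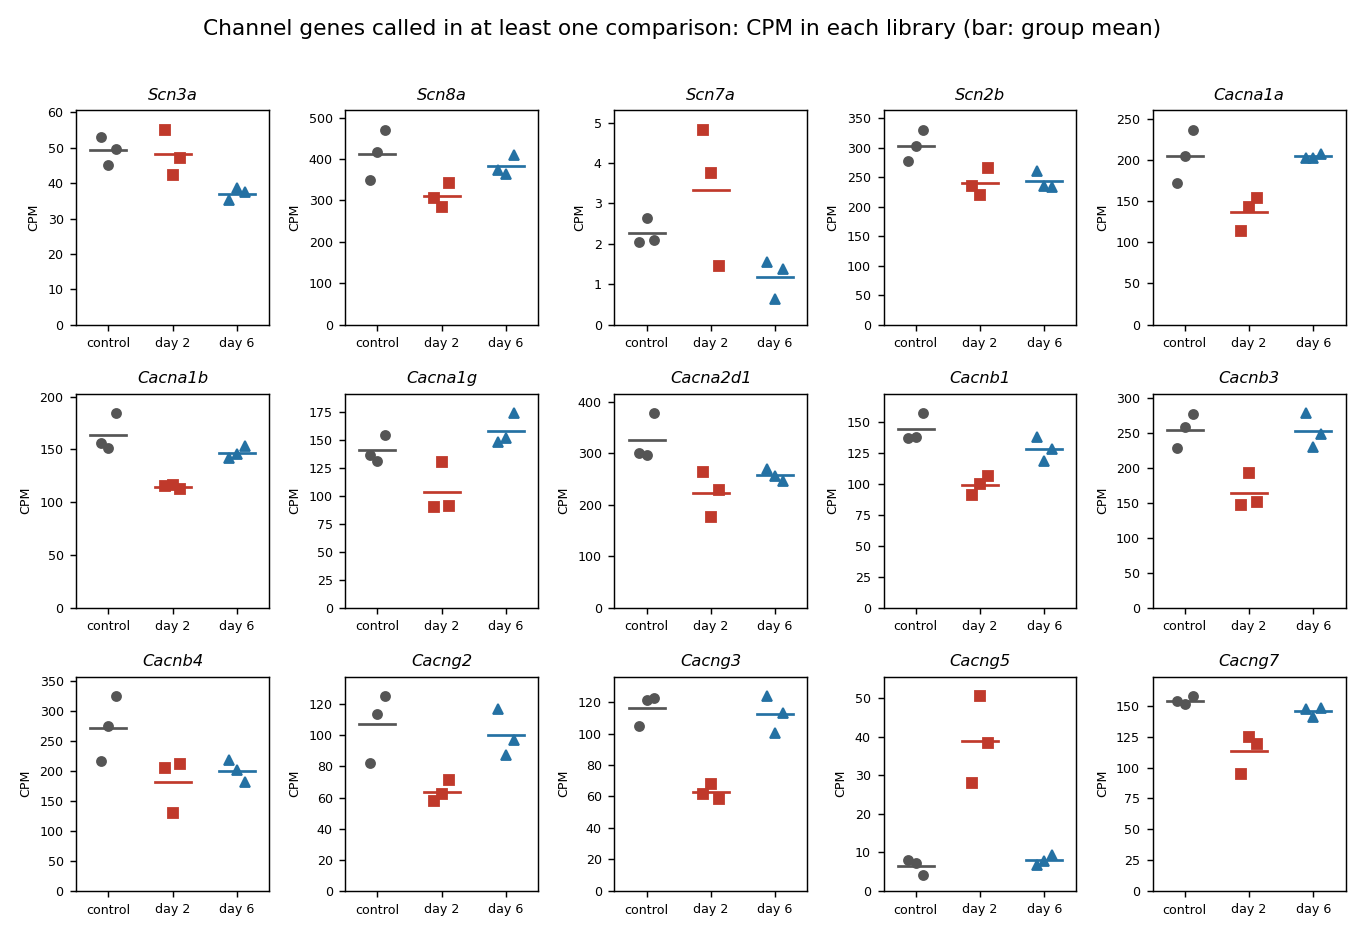
CPM in each library (points, y axis from 0) by group (x axis), with the group mean as a line, for 15 of the 17 channel genes called in at least 1 comparison. Cacng5 is high at day 2 alone (27.98 to 50.5 CPM), Cacng3 and Cacnb3 are low at day 2 alone, and all day 6 points of Scn2b lie below the controls.

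General neuronal transcripts were lower in the same libraries. Of the 14 pan-neuronal markers, 10 were called lower at day 2 and 2 at day 6, with median log2 changes of -0.49 and -0.27. Of 10 excitatory neuron markers, 6 were lower at day 2 (median -0.52, and -0.03 at day 6), and of 10 inhibitory markers 8 were lower at day 2 (median -0.76, and -0.13 at day 6). Of 11 activity-dependent immediate early genes, 7 were lower at day 2 (median -0.95). Relative to the pan-neuronal median of day 2, the change of Cacng3 was -0.40, that of Cacng2 -0.26, that of Cacnb3 -0.14 and that of Cacna1a -0.09. For Scn8a it was 0.08, for Cacna1c 0.44 and for Cacnb2 0.50. The 14 markers themselves ran from -0.81 to -0.22, and the changes of Cacng2, Cacnb3, Cacna1a and Scn8a lay within that range. That of Cacng3 (-0.89) lay below it, and those of Cacna1c (-0.06) and Cacnb2 (0.01) lay above it. The part of neuron number in these changes was not tested.

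Partners of the channels were read from lists chosen with earlier results of these data known. Of the 4 FGF homologous factors, which bind the tails of sodium channels, 2 were lower at day 2, with changes of -0.76 ± 0.12 (adjusted p = 0.000384) for Fgf13 and -0.72 ± 0.16 (adjusted p = 0.00499) for Fgf12. The list median was -0.61 at day 2 and -0.25 at day 6. Of 5 axon initial segment scaffold genes, 1 was lower at day 2, Trim46 (-0.33, adjusted p = 0.0282), where 9.99% of all genes were. Nrcam of the same list was lower at day 6 than in controls (-0.30, adjusted p = 0.0390) and than at day 2 (-0.38, adjusted p = 0.0131). Of 10 tested regulators and tethers of calcium channels, 4 were lower at day 2. Rims1 and Rims2, which hold calcium channels at release sites, changed by -0.82 (adjusted p = 0.000155) and -0.61 (adjusted p = 0.000911). Rimbp2, which links them to the channels, changed by -0.44 (adjusted p = 0.00229), and the calcium sensor Cabp1 by -0.86 (adjusted p = 0.0234). Gem, a small GTP-binding inhibitor of calcium channels, was higher at day 2 (0.69, adjusted p = 0.0498) and at day 6 (0.82, adjusted p = 0.0420). From day 2 to day 6, Rims1 (0.41, adjusted p = 0.0314) and Rims2 (0.40, adjusted p = 0.0262) were higher, and Rims1 was still lower at day 6 than in controls (-0.41, adjusted p = 0.0328). Pex5l, which carries HCN channels to dendrites, was lower at day 2 (-0.40, adjusted p = 0.0461) and at day 6 (-0.57, adjusted p = 0.0162). Of the 4 NALCN leak channel genes, Fam155a was lower at day 2 (-0.29, adjusted p = 0.0427) and Unc80 at day 6 (-0.34, adjusted p = 0.0451).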

How the data were processed

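Poly(A) RNA was extracted with TRIzol, treated with DNase and sequenced with paired reads on Illumina instruments, per the labels' protocols. Reads were aligned with HISAT2 2.1.0 to mm10, per the submitters' processing notes; which program counted them, on what annotation and with which strand option, is not given in the sources used here. Opposite-strand genes that share exons therefore cannot be told apart. The deposited table holds raw counts per gene name and library. Of its 26783 lines, 865 were surplus copies of 49 names, identical to the first copy, and were removed. No 2 cortex libraries of a group agreed within sampling noise, so each was counted.

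The 3 comparisons were fitted in edgeR 4.0.16 (R 4.3.3) on all 9 cortex libraries, with TMM factors, filterByExpr by group (minimum count 10, minimum total 15), robust quasi-likelihood F tests, two-sided, and Benjamini-Hochberg adjustment over the 18151 genes kept. A prior count of 0.125 enters the fitted log2 changes, and intervals are 95%. The procedure was tested on simulated data. As alternatives, the fit was repeated with RLE or upper quartile factors, without the filter or with a stricter one (1 CPM in 3 libraries), in DESeq2 1.42.0, with voom in limma 3.58.1, with the replicate number as a block, on the compared groups alone, and without each library in turn; the striatal covariate was added after seeing the data. Exon lengths and positions are from GENCODE M21, promoters from RefSeq.

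Members and lists were chosen with earlier results of these data known. Values per library are given for the genes called in any comparison and those with a control mean of at least 50 CPM, and the others by range; partner genes are limited to 4 per list by adjusted p. Adora2a, the genes with printed coordinates and the promoters shown were chosen after values were seen. A few members enter the fits and counts but are not reported here. The skull libraries were not analysed here.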

Additional observations from a re-analysis of the deposited data

Results flagged for a closer look

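Day 2 and day 6 share their controls, so a difference between the 2 days in their change from control equals the direct comparison of day 6 with day 2. That comparison was called for 11 of the 40 tested genes, by edgeR's quasi-likelihood test with Benjamini-Hochberg adjustment over all genes, where 11.6% of all genes were called. Of the genes called lower at day 2, those called higher at day 6 than at day 2 were Cacng3 (log2 difference 0.84), Cacng2 (0.66), Cacnb3 (0.62), Cacna1g (0.61), Cacna1a (0.58), Cacnb1 (0.37), Cacng7 (0.36) and Cacna1b (0.36). Every day 6 library lay above every day 2 library for each of these 8. The 8 were picked by a test on these same libraries, so the lack of overlap adds no support. Cacng5, higher at day 2, differed by -2.30, and Scn3a by -0.38, both without overlap. Scn7a differed by -1.51, with overlapping libraries and 0.641 to 4.82 CPM. Groups of 3 libraries are too small for a test of single outlying libraries.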

How the results depend on the processing

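Of the 15 genes called at day 2, 8 were kept in each of the 9 other fits and each of the 6 fits without 1 library: Cacna1a, Cacna1b, Cacnb1, Cacnb3, Cacng2, Cacng3, Cacng5 and Cacng7. Of the 11 called between day 2 and day 6, 3 were kept (Cacnb3, Cacng3 and Cacng5), and Scn3a at day 6 was not. The share of all called genes kept in every fit was not computed. With 3 libraries a group, an arm left with 2 has less power, and low counts, as for Cacng6, limit what can be seen. Some calls were also lost in fits that left out no library of the compared groups, and the cause of the losses was not tested.

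Leaving out 1 library gave 8 to 18 called members at day 2 (7 to 17 lower), 0 to 2 at day 6 (0 to 2 lower) and 3 to 9 between the days (2 to 7 higher, 1 to 2 lower). Over all genes it gave 3136 to 4622 calls at day 2, 1005 to 2091 at day 6 and 910 to 1948 between the days. At day 6, DESeq2 called 4 members and the compared groups alone 6, all lower, beside 2411 and 2352 of all genes. Between the days, voom and the compared groups alone called 1 member lower each. With the striatal covariate, edgeR called 0 members (0 lower) and 1106 of all genes at day 6. At an unadjusted p below 0.05 there were 6 members and 3372 of all genes. Between the days it called 17 members, 15 of them higher, and 1984 of all genes. The cause of these shifts was not tested.

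Changes of sign concerned genes that were not called. At day 2 Scn4b was -0.23 with voom and -1.70 to 0.54 without 1 library, and Cacna1d -0.12 to 0.028. At day 6 the covariate gave 0.69 for Scn4b and -0.034 for Cacna1d; without 1 library Cacna1c ran from -0.14 to 0.0023 and Hcn2 from -0.12 to 0.11. Between the days Cacna1c was -0.0022 with voom, -0.019 with the covariate and -0.046 to 0.052 without 1 library; Scn4b was 0.61 with the covariate and -1.90 to 0.29, and Scn2a -0.10 to 0.14, without 1 library.

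The labels state nothing shared by libraries of the same number, so the main fit did not pair them. The deviations of the 9 same-number pairs of libraries from their group means correlated at -0.0408 to 0.233, over 0.1 in 3 pairs. Pairs of different number and group correlated at -0.303 to 0.137. These values do not settle whether the numbers pair the libraries. With the replicate block, 22 members were called at day 2 (Scn1a, Scn2a, Scn3b, Cacna1i, Cacna2d2, Cacna2d3 and Hcn2 besides the 15), 3 at day 6 (3 lower) and 11 between the days. Over all genes the block gave 4606, 2050 and 2326 calls in the same order. Scn4b was -0.19 at day 2 and Cacna1c -0.000907 between the days.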
